A study of Mus musculus with 8 samples.

Results

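Histone and DNA methylation modifying enzymes add or remove methyl and acetyl groups on histones, or methyl groups on DNA. Their transcripts were followed in cells sorted as eosinophils from the mouse bone marrow and small intestine. Members were taken by symbol: the lysine demethylases (Kdm), the lysine methyltransferases of the Kmt2, Kmt5 and Setd families, the histone deacetylases (Hdac), the sirtuins (Sirt), the lysine acetyltransferases (Kat), the Tet and Dnmt families, and Ezh1, Ezh2, Eed and Suz12. Kdm5d was left out. The rule found 79 of the 38392 genes in the table, of which 70 could be placed in 15 lists by role and 9 were antisense transcripts, pseudogenes or the rodent gene Dnmt3c. A mean of at least 10 reads per library was reached by 72 of the 79, and the other 7 were too thinly covered for a difference to be read.

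Nucleosomal histones carry marks that enzymes write and erase. Acetylation of lysines by acetyltransferases goes with active chromatin and is reversed by deacetylases, whereas methylation acts by position: on H3K4 and H3K36 it marks active genes and enhancers, and on H3K27 and H3K9 silent ones. On DNA, Dnmt1 copies CpG methylation to the new strand at replication, Dnmt3a and Dnmt3b set it anew, and Tet dioxygenases oxidise it. Several enzymes, among them Ezh2, Dnmt1 and Kmt5a, are known to be abundant in dividing cells, and granulocyte precursors divide in the marrow while mature eosinophils do not.

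RNA came from wildtype female C57/BL6 mice, with 4 libraries from bone marrow and 4 from small intestine, and the ages of the animals are not given in the labels. Bone marrow eosinophils were sorted as CD11b+Ly6G-Ly6C-SiglecF+SSChi and intestinal ones as CD11b+MHC-II-SiglecF+SSChi. Intestinal cells had first been released by enzymes and enriched on CD11b beads, and marrow cells had not, so tissue and handling cannot be told apart. Nothing beyond the sorting separates stages of maturation within either population. Libraries are named by their columns, and values are listed in the order BM_1, BM_3, BM_4, BM_5 and SI_6, SI_7, SI_10, SI_11. Depth was between 11508002 and 21289164 reads in genes. A normalised count is a number of reads divided by the size factor of the library, with mean ± SD over n = 4 libraries per tissue. A difference is the intestinal minus the marrow value on the log2 scale of the deposited table, with its standard error (SE) from limma, and a gene was called at an adjusted p under 0.05 over all 38392 genes. In bulk samples such as these, fewer cells that express a gene and less of its RNA per cell cannot be told apart.

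The sorted populations were checked against marker genes. The eosinophil receptor genes Ccr3, Siglecf and Il5ra were higher in small intestine, the granule genes Prg2, Epx, Ear1, Ear2 and Prg3 were higher in bone marrow, and Ear6 was not called. Together the 9 eosinophil genes took 0.0205% to 0.0345% of reads in bone marrow and 0.109% to 0.147% in small intestine. Neutrophil precursor genes took 4.08% to 4.81% of the reads in bone marrow and 0.00500% to 0.00688% in small intestine, with 11 of 11 lower. In every marrow library they thus took more reads than the 9 eosinophil genes. The differences below are therefore between sorted populations and not between eosinophils alone. Cell division genes took 0.467% to 0.524% and 0.0236% to 0.0621%, with 12 of 12 lower. Genes of the tissue dissociation response took 0.00879% to 0.0111% and 0.600% to 0.763% (12 of 12 higher). Those of macrophages and dendritic cells took 0.00571% to 0.00673% and 0.187% to 0.203% (8 of 8 higher), and epithelial genes 0.000522% to 0.000901% and 0.0322% to 0.218% (8 of 8 higher). Of the macrophage and dendritic genes, Itgax, at an intestinal mean of 14221 normalised counts, and Adgre1, at 13672, are also made by intestinal eosinophils. The others lay at 1301 (Csf1r), 1093 (H2-Ab1), 429 (Cd68), 185 (C1qb), 115 (C1qc) and 76.8 (C1qa). H2-Ab1, an MHC class II gene, ranged from 221 in SI_10 to 2043 in SI_6, although the intestinal cells were sorted as MHC-II-. Erythroid genes were lower (6 of 6) and fibroblast genes higher (5 of 5) in small intestine, at under 0.01% of reads in every library. Of 6 genes each, 3 T cell genes were higher, and 1 B and plasma cell gene was higher and 2 were lower. No marker was at 0 in all libraries of a tissue. The part that these other cells, cell division or handling had in the differences below was not tested.

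The enzymes did not move as a block. Of the 79 members, 25 were called higher in small intestine, 19 were called lower and 35 were not called, which makes 55.7% called against 34.9% of all genes (22.0% higher and 12.9% lower). The share called was higher among well-covered genes: among genes averaging at least 10 reads, 63.1% were called (34.6% higher and 28.6% lower), and of the 72 members with as many reads 61.1% were called. The libraries of the tissues did not overlap for 50 members, 29 higher and 21 lower, all of them among the 72 well-covered ones, against 34.3% of all genes and 67.4% of genes averaging at least 10 reads. The median difference was 0.15 over the 70 members with a role, 0.37 over all genes and 0.12 over genes with at least 10 reads. With a trended prior, 52 members were called, against 36.6% of all genes.

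**Figure D1:**
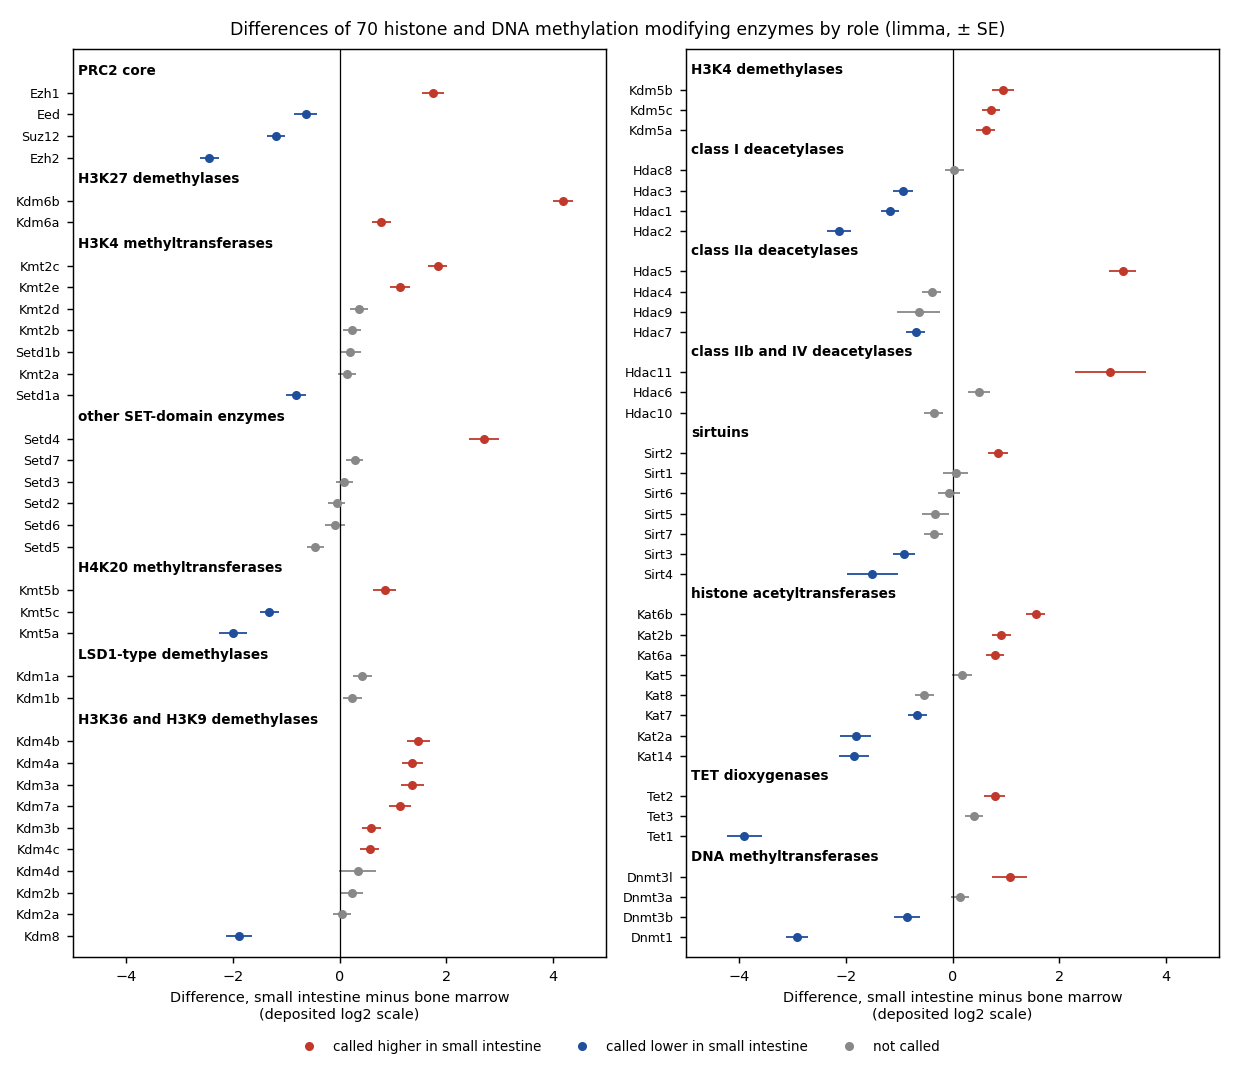
Differences of the 70 enzymes with a role, intestinal minus marrow value on the log2 scale of the deposited table (horizontal axis), grouped by role; points are limma differences, bars are ± SE with 4 libraries per tissue, and colour marks the call at an adjusted p under 0.05. Tet1 (-3.91) and Dnmt1 (-2.92) lie farthest to the left and Kdm6b (4.19) farthest to the right, and most lists hold points on both sides of 0.

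The scaling between libraries sets where a difference of 0 lies. The size factors of the authors were used here. Centring each library on its median over all genes moved the median of all genes from 0.37 to -0.53, a shift of -0.90, and quantile normalisation moved it to -0.03. The 19 members called lower were all called lower under median-centring, whereas only 5 members (Kdm6b, Kdm6bos, Hdac5, Hdac11 and Setd4) were then called higher. Since that scaling moves every gene alike, the 9 members called higher by less than 0.90 (Kdm6a, Kdm4c, Kdm3b, Kdm5a, Kdm5c, Kmt5b, Tet2, Kat6a and Sirt2) then had a difference below 0, and none of them was called. Quantile normalisation kept 35 of the 44 calls, 18 higher and 17 lower. Centring on the median over genes with at least 10 reads, chosen after seeing the data, shifted the median of all genes by -0.06 alone, kept 38 of the 44 calls (19 higher and 19 lower) and changed the sign of none. The calls it lost were those of Dnmt3l, Kdm4c, Kdm3b, Kdm5a, Kmt5b and Tet2. Across all genes, 63.2% of calls were in the higher direction with the size factors, 29.6% with median-centring and 45.9% with quantile normalisation. Of genes averaging at least 10 reads, 28.6% were called lower with the size factors, 41.8% with median-centring and 36.4% with quantile normalisation. With the size factors 34.6% of them were called higher. That share was not counted under the other scalings, so counts called higher under them stand beside the shares of calls alone. The counts by list below stand beside these shares, and no list was tested. Ratios of 2 enzymes within a library do not depend on any scaling, and they are given below for 20 pairs of related enzymes as log2 ratios of reads. Each ratio was tested between tissues with a 2-sided exact permutation test over the 70 assignments of libraries, which cannot give a p below 0.0286. The ratio changed in 14 of the 20 pairs, in 7 toward the first enzyme and in 7 toward the second, and in each of the 14 the p was at that minimum. A pair reaches it when its ratios do not overlap between the tissues. Single genes averaging at least 10 reads did not overlap in 67.4% of cases. Pairs of other genes were not counted, so the share of 14 of 20 is not shown to be particular to these enzymes. The adjusted p of 0.0408 that these 14 share depends on how many of the 20 pairs reached it.

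**Figure D2:**
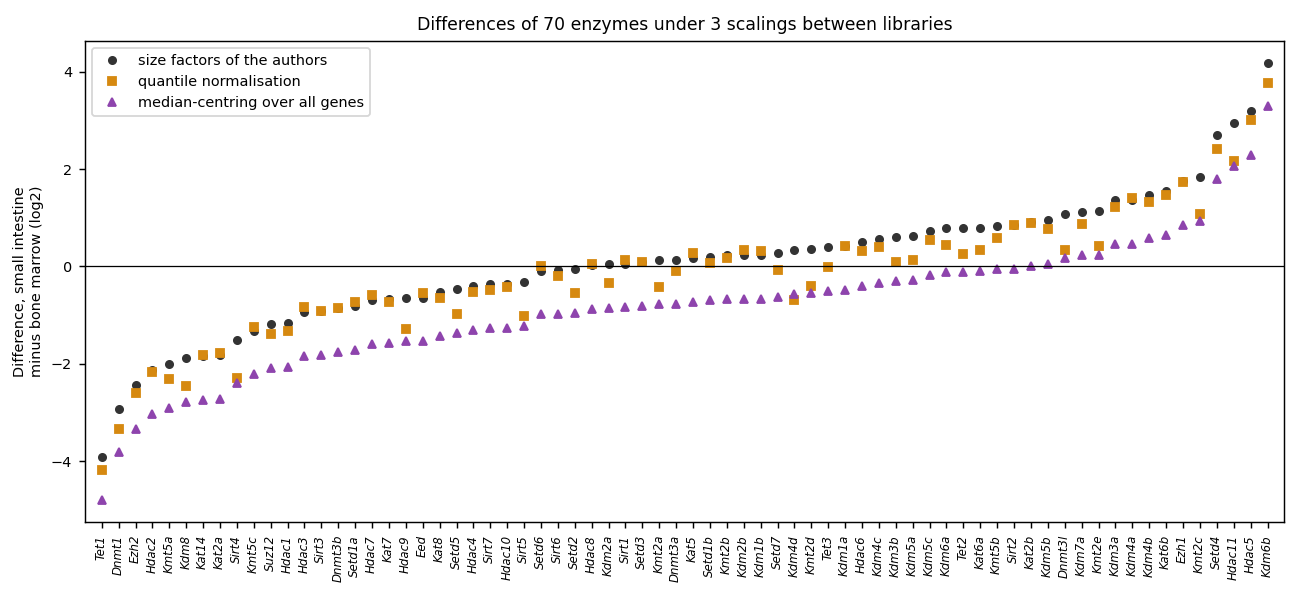
Difference of each of the 70 enzymes with a role (vertical axis, log2, small intestine minus bone marrow) under the authors' size factors, quantile normalisation and median-centring over all genes, ordered by the first. The triangles of median-centring lie 0.90 below the circles throughout, and the enzymes at either end, such as Tet1, Dnmt1, Hdac5 and Kdm6b, stay on their side of 0 under all 3 scalings.

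Promoters of the enzymes were searched for 6 short motifs, and sequences are shown for the pair of motifs that were found mainly before members of one direction. That split is how the pair was picked, so no conclusion is drawn from it. RefSeq promoters of the build GRCm38.p6 matched 58 of the 70 members with a role, with 84 start sites, and the 250 bases before each start were read on both strands. The 27025 gene symbols used for comparison had 32851 start sites, and the number of starts per gene was not matched. Hdac1, Hdac3, Hdac10, Kat6a, Kdm2a, Kdm3b, Kdm4b, Kdm5a, Kdm6b, Kmt2b, Kmt2e and Setd1b had no entry. An E2F-type site (TTTCGCGC, TTTGGCGC, TTTCCCGC or TTTGCCGC) stood before 5 of 17 members called lower, 0 of 18 called higher, 0 of 23 not called and 2.16% of 27025 gene symbols. The window of 30 bases around the site is printed for these 5, 5′ to 3′ on the strand of the gene, with the motif or its reverse complement in capitals, at chr9:20952824-20952853 (minus strand, inside an annotated exon of Dnmt1), chr11:100712508-100712537 (minus), chr7:4740011-4740040 (plus), chr5:115484298-115484327 (minus) and chr11:79992876-79992905 (plus).
Dnmt1: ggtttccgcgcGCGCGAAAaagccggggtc
Kat2a: aaggatgggaaGCGGCAAAggaagactacg
Kmt5c: ggccagaagagGCGGGAAAaagagagcaat
Sirt4: gtgttctgatccggctgaaggTTTCCCGCt
Suz12: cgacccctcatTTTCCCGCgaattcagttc

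The AP-1 site (TGACTCA or TGAGTCA), which Fos and Jun proteins bind, stood before 4 of 18 members called higher, 0 of 17 called lower, 1 of 23 not called (Kat8) and 5.16% of gene symbols. The 4 windows lie at chr17:53566721-53566750 (plus strand), chr6:71632843-71632872 (minus, inside an exon of Kdm3a), chr4:118180215-118180244 (minus) and chrX:152233145-152233174 (plus, inside an exon of Kdm5c), again with the motif in capitals.
Kat2b: cacacaccatTGAGTCAtctccctccctct
Kdm3a: gccgtcgtgggTGACTCAgggaggcgggag
Kdm4a: ctatggagatcTGAGTCAgcctctgatagg
Kdm5c: aggtttttttcTGACTCAaagtaaacggaa

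The other motifs searched were spread over the members. The CCAAT box (CCAAT) stood before 8 of 18 members called higher, 8 of 17 called lower, 11 of 23 not called and 37.5% of symbols. The GC box (GGGCGGG) stood before 10, 6 and 12 of them and 25.7% of symbols, and the core of the xenobiotic response element (GCGTG) before 11, 7 and 10 and 30.9% of symbols. A CRE (TGACGTCA) was found before none of the 58 and before 1.77% of symbols. None of the listed motifs contains another. The motifs were chosen after the differences had been seen, a match is not a binding site, and these counts were not tested.

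In polycomb repressive complex 2 (PRC2), which methylates H3K27, the catalytic subunit Ezh2 was lower in small intestine under all 3 scalings and its alternative Ezh1 was higher, though not called under median-centring (difference 0.85). Ezh2, which predominates in dividing cells (ENSMUSG00000029687, GRCm38 chr6:47530139-47595341, minus strand), had normalised counts of 2557, 2526, 2785 and 2426 in the marrow libraries and 514, 478, 470.4 and 423 in the intestinal ones. Every intestinal library was below every marrow library, with a 5.46-fold lower mean (difference -2.44 ± 0.17 SE, adjusted p = 1.53e-05). Ezh1, which is also made in resting cells (ENSMUSG00000006920, chr11:101191115-101226463, minus strand), went the other way, from 451, 447, 400.0 and 332 to 1151, 1360.4, 1361 and 1652. Its libraries did not overlap either, and its mean was 3.39-fold higher (1.75 ± 0.20, adjusted p = 2.38e-04).

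There were 5.68, 5.65, 6.96 and 7.31 reads of Ezh2 per read of Ezh1 in bone marrow and 0.447, 0.352, 0.346 and 0.256 in small intestine. Ezh2 was thus the more numerous in all 4 marrow libraries and Ezh1 in all 4 intestinal ones. The log2 ratio changed from 2.67 ± 0.19 to -1.54 ± 0.33 (SD, exact permutation test, n = 4 each, adjusted p = 0.0408). Per kilobase of exon, Ezh2 stood at 385 ± 22.7 normalised counts in the marrow against 70.6 ± 5.61 in the intestine, and Ezh1 at 54.7 ± 7.43 and 186 ± 27.7.

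The non-catalytic PRC2 subunits were also lower, with smaller differences than Ezh2. Suz12, which holds the complex together, had 2062, 2172, 2176 and 2031 in bone marrow and 886, 846, 920.0 and 1057 in small intestine, with no overlap and a 2.28-fold lower mean (-1.19 ± 0.17, adjusted p = 7.91e-04). Eed, the subunit that binds methylated H3K27, had 591, 607, 403 and 561 in the marrow against 384, 330.1, 379 and 282 in the intestine. The lowest marrow library of Eed stood at 403 and the highest intestinal one at 384, and its call (-0.64 ± 0.21, adjusted p = 0.0485) was lost without BM_1, BM_3, BM_5, SI_7 or SI_11, under quantile normalisation and with log2 of the normalised count plus 1.

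Both H3K27 demethylases were higher in small intestine with the size factors and under quantile normalisation, and under median-centring Kdm6b alone. Kdm6b (ENSMUSG00000018476, GRCm38 chr11:69398508-69413675, minus strand) had 785, 756, 638 and 700.0 in bone marrow and 10559, 13413, 13944 and 15115 in small intestine. No other enzyme with a role rose as far: its mean was 18.4-fold higher (4.19 ± 0.19, adjusted p = 2.05e-06), and every intestinal library was more than 10 times above every marrow library. Kdm6a, an X-linked H3K27 demethylase that also works with the H3K4 methyltransferases Kmt2c and Kmt2d, had 1904, 1809.7, 1687 and 1705 in the marrow against 2616, 3077, 3194 and 3392 in the intestine. It was 1.73-fold higher without overlap (0.78 ± 0.18, adjusted p = 0.00825), and its difference was -0.12 and not called under median-centring. Kdm6b stood at 0.412, 0.418, 0.378 and 0.411 reads per Kdm6a read in bone marrow and 4.04, 4.36, 4.37 and 4.46 in small intestine, a log2 change of 3.41 (exact permutation test, adjusted p = 0.0408).

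Kdm6bos, an antisense transcript annotated inside Kdm6b (ENSMUSG00000085178, chr11:69401513-69402700, plus strand), had 11.5, 10.4, 12.4 and 5.58 in bone marrow and 553, 700.3, 608 and 645 in small intestine. It had the largest difference of all 79 members (5.57 ± 0.23, adjusted p = 1.34e-06, 62.8-fold). It shares 286 exon bases, 34.1% of its exons, with Kdm6b on the opposite strand, and since the strand setting of the counting is not given in the sources used here, reads of the overlapping genes cannot be told apart. There were 0.797 to 1.95 Kdm6bos reads per 100 Kdm6b reads in bone marrow and 4.27 to 5.24 in small intestine.

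**Figure D3:**
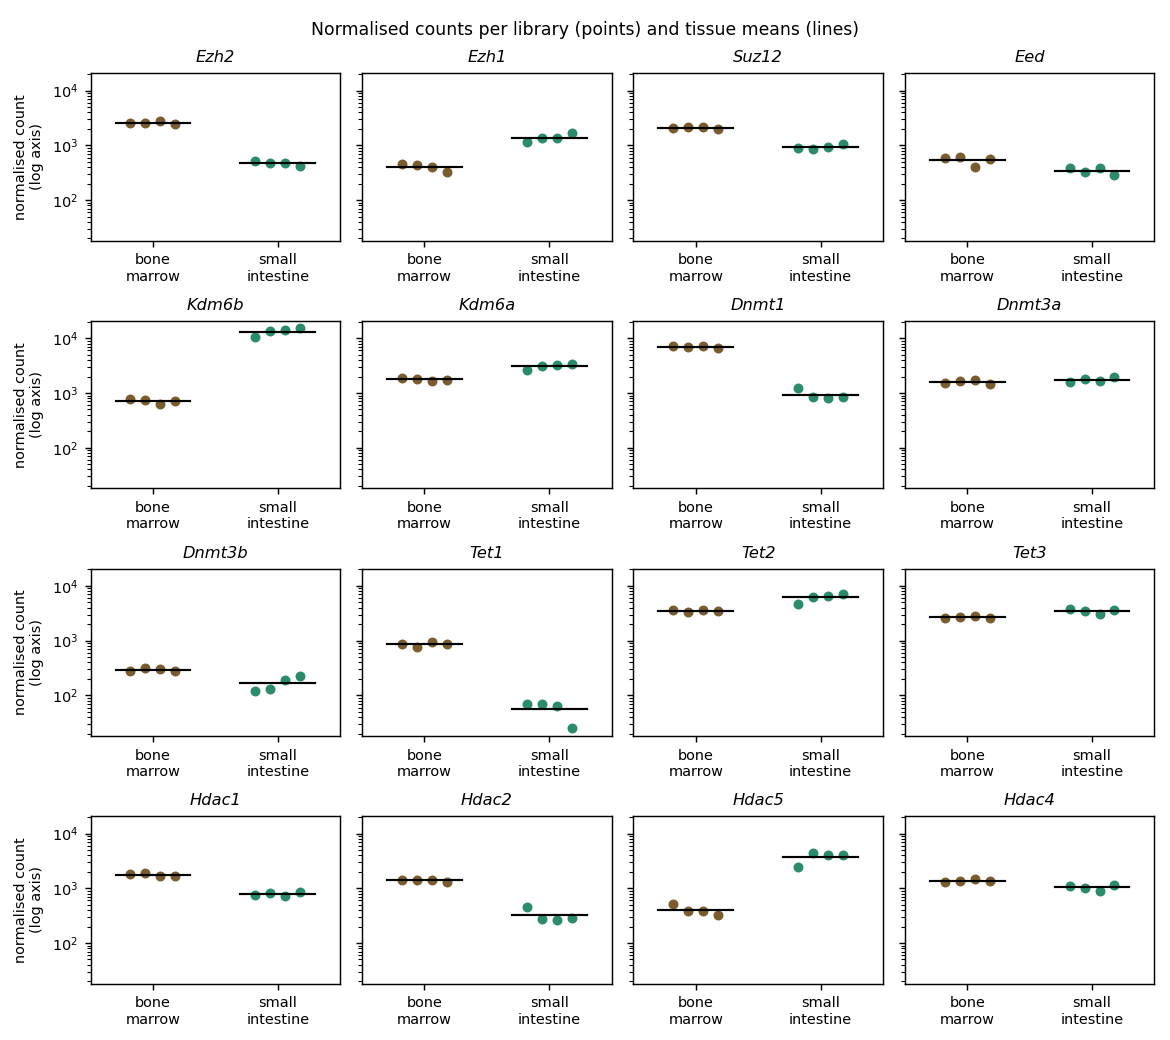
Normalised counts (vertical log axis) of 16 enzymes in the 4 bone marrow and 4 small intestine libraries; each point is a library and each line the mean of its tissue. Ezh2, Dnmt1, Tet1, Hdac1 and Hdac2 lie lower in every intestinal library and Ezh1, Kdm6b and Hdac5 higher, while the points of Dnmt3a overlap.

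Of the 4 DNA methyltransferases, Dnmt1 alone was lower under all 3 scalings. Dnmt1 (ENSMUSG00000004099, chr9:20907209-20959888, minus strand), the maintenance enzyme, had 7207, 6853, 7379 and 6539 in bone marrow and 1244, 838, 799.7 and 859 in small intestine. SI_6 was the highest intestinal library and still far below the marrow, and the mean was 7.48-fold lower (-2.92 ± 0.20, adjusted p = 1.57e-05). Per kilobase it was the most abundant member in bone marrow, at 948 ± 50.7 normalised counts per kilobase of exon, against 127 ± 28.1 in small intestine. Dnmt3a, the main de novo enzyme of blood cells, had 1529, 1674, 1721 and 1435 in the marrow against 1616, 1792, 1649.7 and 1936 in the intestine. Its libraries overlapped and its difference (0.14 ± 0.17, adjusted p = 0.556) was not called and changed sign under median-centring and quantile normalisation. Dnmt3a reads per Dnmt1 read were 0.212, 0.244, 0.233 and 0.220 in bone marrow and 1.30, 2.14, 2.06 and 2.25 in small intestine. Dnmt1 thus had more reads in all marrow libraries and Dnmt3a in all intestinal ones (log2 change 3.06, exact permutation test, adjusted p = 0.0408). This order is of reads, and the exons of Dnmt3a (16.6 kb) are longer than those of Dnmt1 (7.38 kb). Per kilobase of exon the order of the means was not reversed. The intestinal mean of Dnmt3a on that scale was 105 ± 8.8, below the 127 ± 28.1 of Dnmt1, with overlapping spreads.

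Dnmt3b, the other de novo enzyme, was scarcer, with 281, 312, 307 and 284 in the marrow against 119, 130.4, 193 and 228 in the intestine. Its libraries did not overlap (-0.86 ± 0.25, adjusted p = 0.0258), but the call was lost without BM_1, BM_3, BM_4 or SI_7 and under quantile normalisation. Relative to Dnmt3a within a library it fell by a log2 ratio change of -1.01 (exact permutation test, adjusted p = 0.0408). Dnmt3l, a cofactor without catalytic activity, had 13.8, 21.5, 13.4 and 21.4 in the marrow against 19.6, 47.2, 54.7 and 48.6 in the intestine. SI_6 lay within the marrow range, and the call (1.07 ± 0.33, adjusted p = 0.0355) was lost without BM_1, BM_3, BM_4, SI_7, SI_10 or SI_11 and under median-centring and quantile normalisation.

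Among the Tet dioxygenases, Tet1 was lower in small intestine under all 3 scalings, whereas of these scalings Tet2 was called higher with the size factors alone and Tet3 was not called. Tet1 (ENSMUSG00000047146, chr10:62804570-62908996, minus strand) had 867, 761, 941 and 858 in bone marrow and 71.0, 70.7, 63.4 and 24.9 in small intestine. The lowest marrow library was more than 10 times above the highest intestinal one, and the 14.9-fold lower mean gave the largest fall of any member (-3.91 ± 0.33, adjusted p = 4.19e-05). Tet2, the most frequently mutated Tet gene in myeloid cancers, had 3601, 3379, 3669 and 3439 in the marrow against 4661, 6204, 6532 and 7272 in the intestine. It was 1.75-fold higher without overlap (0.79 ± 0.20, adjusted p = 0.014), with a difference of -0.11 and no call under median-centring and no call under quantile normalisation. Tet3 had 2572, 2704, 2809 and 2548 in the marrow against 3764, 3477, 3100.2 and 3654 in the intestine. Its libraries did not overlap, but its difference (0.39 ± 0.17, adjusted p = 0.112) was not called and was below 0 under median-centring and quantile normalisation. Tet1 fell from 0.241, 0.225, 0.256 and 0.250 to 0.0152, 0.0114, 0.00971 and 0.00342 reads per Tet2 read (log2 change -4.78, exact permutation test, adjusted p = 0.0408), whereas the change in Tet3 relative to Tet2 (-0.40) did not pass (adjusted p = 0.179).

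Of the 4 class I deacetylases, 3 were lower in small intestine under all 3 scalings. Of genes averaging at least 10 reads, 28.6% to 41.8% were lower under these scalings. Of the class I enzymes, Hdac1, Hdac2 and Hdac3 are between them the catalytic core of the Sin3, NuRD, CoREST and NCoR corepressors. Hdac2 had 1404, 1418, 1420.0 and 1331 in bone marrow and 462, 273, 266 and 290.4 in small intestine, and Hdac1 had 1814, 1898, 1693 and 1699 in the marrow against 763, 808, 719.8 and 862 in the intestine. Neither overlapped between the tissues, and Hdac2 fell 4.32-fold (-2.13 ± 0.22, adjusted p = 1.42e-04) against 2.25-fold for Hdac1 (-1.17 ± 0.17, adjusted p = 8.16e-04). The ratio of Hdac2 to Hdac1 reads was 0.774, 0.747, 0.839 and 0.784 in bone marrow and 0.605, 0.338, 0.369 and 0.337 in small intestine, a log2 change of -0.97 (exact permutation test, adjusted p = 0.0408). Hdac3, the deacetylase of the NCoR complex, fell by 0.93 (adjusted p = 0.00392), and Hdac8 was at 187 ± 28.9 in the marrow and 189 ± 7.62 in the intestine (difference 0.03 ± 0.18, not called).

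Of the class IIa deacetylases, which shuttle between cytoplasm and nucleus and bind MEF2 factors, Hdac5 was higher under all 3 scalings. Hdac5 (ENSMUSG00000008855, chr11:102194432-102230166, minus strand) had 527, 382, 379.9 and 325 in bone marrow and 2468, 4348, 4094 and 4020.5 in small intestine, a 9.25-fold higher mean (3.19 ± 0.26, adjusted p = 3.31e-05). SI_6 was the lowest intestinal library and still above the whole marrow range. Hdac7 had 387, 384, 413 and 321 in the marrow against 246, 211, 225 and 244 in the intestine and was lower without overlap (-0.69 ± 0.18, adjusted p = 0.016). Hdac4 (-0.40 ± 0.18, adjusted p = 0.125) and Hdac9 (-0.64 ± 0.40, adjusted p = 0.253) were not called with the size factors, but 3 of the 4 class IIa enzymes were lower under median-centring and under quantile normalisation. Hdac5 was the minor partner of Hdac4 in bone marrow, with 0.408, 0.282, 0.256 and 0.239 reads per Hdac4 read, and the major one in small intestine, with 2.25, 4.25, 4.59 and 3.44. The log2 ratio changed by 3.59 (exact permutation test, adjusted p = 0.0408), though 22.4% of the exon bases of Hdac4 are shared with a lincRNA, Gm26720, on the opposite strand.

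Hdac11, the class IV enzyme, was scarce in bone marrow with 3.06, 0, 4.78 and 9.30 and variable in small intestine with 106, 51.3, 17.5 and 32.0. The groups did not overlap (2.96 ± 0.67, adjusted p = 0.00873), but BM_3 held no read, SI_6 held the most, and the call was lost under quantile normalisation. A transcript on the opposite strand, Gm44002, covers 15.4% of its exon bases. Hdac6, a cytoplasmic deacetylase of tubulin (0.50 ± 0.21), and Hdac10, a polyamine deacetylase (-0.36 ± 0.18), were not called.

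Of the 7 sirtuins, deacylases that depend on NAD, 1 was higher and 2 were lower, and under median-centring 0 and 4. Sirt3, the main mitochondrial deacetylase, had 266, 232, 246 and 237 in bone marrow and 129.9, 146, 94.1 and 153 in small intestine, lower without overlap (-0.91 ± 0.21, adjusted p = 0.00894). Sirt4, also mitochondrial, had 49.0, 51.5, 40.2 and 40.9 in the marrow against 44.8, 13.9, 7.66 and 5.93 in the intestine. SI_6 lay inside the marrow range while the other 3 intestinal libraries were far below it, and the call (-1.50 ± 0.48, adjusted p = 0.0411) was lost when any library but SI_6 was left out. Sirt2, a mainly cytoplasmic deacetylase, was called higher (0.85 ± 0.19, adjusted p = 0.009), with a difference of -0.05 and no call under median-centring, and relative to Sirt1 its change (0.80) did not pass the exact permutation test (adjusted p = 0.0762). Sirt1, Sirt5, Sirt6 and Sirt7 had differences from -0.36 to 0.06 and were not called.

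Of the 8 acetyltransferases, 3 were higher and 3 lower, and under median-centring 0 were higher and 4 lower. Kat2a (Gcn5), a catalytic subunit of the SAGA and ATAC coactivators, had 718, 687, 789 and 741 in bone marrow and 318, 236, 121 and 194 in small intestine, and Kat14, a further ATAC subunit, had 833, 738, 898 and 740.0 in the marrow against 338, 252, 145 and 186 in the intestine. Both were lower in every intestinal library, Kat2a 3.38-fold (-1.82 ± 0.29, adjusted p = 0.0014) and Kat14 3.48-fold (-1.85 ± 0.28, adjusted p = 0.001), although Kat14 shares 14.8% of its exon bases with Pet117. Kat2b (Pcaf), the paralogue of Kat2a, rose by 0.91 (adjusted p = 0.00491), but the difference was 0.01 under median-centring. Within libraries, Kat2b stood at 0.872, 0.809, 0.766 and 0.652 reads per Kat2a read in bone marrow and 2.98, 4.61, 8.49 and 6.30 in small intestine (log2 change 2.75, exact permutation test, adjusted p = 0.0408).

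Of the acetyltransferases of the MYST family, Kat6b had 592, 552, 587 and 583 in bone marrow and 1529, 1733, 1652 and 1932 in small intestine. It was 2.96-fold higher without overlap (1.55 ± 0.17, adjusted p = 1.82e-04) and not called under median-centring. Its paralogue Kat6a was also higher (0.80 ± 0.17, adjusted p = 0.00566), with a difference of -0.10 under median-centring, and Kat6b gained on it by 0.76 in log2 ratio (exact permutation test, adjusted p = 0.0408). Kat7 (Hbo1), which acetylates H3 and H4 and takes part in licensing of replication, was lower (-0.66 ± 0.17, adjusted p = 0.0173). Kat8 (Mof), which acetylates H4K16, and Kat5 (Tip60) were not called (-0.53 ± 0.19 and 0.17 ± 0.19).

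Among the H3K4 methyltransferases, 2 large enzymes rose and Setd1a fell. Kmt2c (Mll3), which methylates H3K4 at enhancers, had 4400.1, 4472, 4747 and 4610.3 in bone marrow and 14763, 18197, 15098 and 17213 in small intestine, and Kmt2e (Mll5), a SET-domain protein of the family without clear methyltransferase activity, had 5012, 4940.0, 5607 and 5060.2 in the marrow against 9069, 12094, 11316 and 13086 in the intestine. Neither overlapped, and Kmt2c was 3.58-fold (1.83 ± 0.17, adjusted p = 7.52e-05) and Kmt2e 2.21-fold higher (1.13 ± 0.19, adjusted p = 0.00176). Neither was called under median-centring, where both differences stayed above 0. Kmt2d (Mll4), the paralogue of Kmt2c, differed by 0.36 ± 0.16 and was not called, and it went from 1.55, 1.57, 1.46 and 1.53 reads per Kmt2c read in bone marrow to 0.585, 0.508, 0.546 and 0.559 in small intestine (log2 change -1.47, exact permutation test, adjusted p = 0.0408).

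Setd1a, a catalytic subunit of the complexes that trimethylate H3K4 at promoters, was at 470.4 ± 59.3 in the marrow and 264 ± 30 in the intestine and lower without overlap (-0.82 ± 0.19, adjusted p = 0.0091). In the annotation used here it shares 51.9% of its exon bases with Gm49388 on the same strand. Whether the annotation used for counting held this overlap was not checked, so the count of Setd1a is uncertain. Setd1b relative to Setd1a gained 1.03 in log2 ratio (exact permutation test, adjusted p = 0.0408). Kmt2a, Kmt2b and Setd1b had differences from 0.13 to 0.23 and were not called.

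The H3K4 demethylases Kdm5a, Kdm5b and Kdm5c were all called higher with the authors' size factors, whereas none was under median-centring, where their median difference was -0.18. Kdm5b had 972, 1050.0, 1174 and 869 in bone marrow and 1593, 1915, 2068 and 2284 in small intestine (0.94 ± 0.20, adjusted p = 0.00602), and the X-linked Kdm5c had 1054, 1063, 1119 and 1077 in the marrow against 1679.9, 1765, 1779 and 1885 in the intestine (0.72 ± 0.16, adjusted p = 0.00845). All intestinal libraries of both genes lay above all marrow libraries. Kdm5a rose by 0.62 (adjusted p = 0.0285), a call that was lost without BM_4 and under quantile normalisation. Kdm5b gained 0.33 on Kdm5a in log2 ratio, the smallest change that passed (exact permutation test, adjusted p = 0.0408).

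Demethylases of H3K36 and H3K9 were likewise mostly higher, 6 of 10 with the size factors and 0 of 10 under median-centring. With the size factors 34.6% of genes averaging at least 10 reads were called higher. Under median-centring that share was not counted, and 29.6% of the calls over all genes were in the higher direction. Kdm4b had 61.3, 60.0, 89.0 and 65.1 in bone marrow and 181, 166, 225 and 217 in small intestine, 2.87-fold higher without overlap (1.48 ± 0.21, adjusted p = 7.47e-04). Kdm4a (1.36) and Kdm3a (1.36), an H3K9 demethylase, rose to a similar extent, and Kdm7a (1.13), Kdm3b (0.60) and Kdm4c (0.57) less, with adjusted p from 8.63e-04 (Kdm4a) to 0.0389 (Kdm4c). The calls of Kdm4c and Kdm3b were each lost without BM_1 or BM_4, that of Kdm4c also without BM_3, and both under quantile normalisation. Kdm3b shares 24.6% of its exon bases with a lincRNA on the opposite strand. Kdm3b went down relative to Kdm3a by a log2 ratio change of -0.77 (exact permutation test, adjusted p = 0.0408), while the ratios of Kdm4b to Kdm4a (0.15) and Kdm2b to Kdm2a (0.19) did not pass.

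Kdm8 (Jmjd5), a JmjC-domain protein first described as an H3K36 demethylase, was the exception. It had 81.2, 71.7, 105 and 81.8 in bone marrow and 25.1, 20.8, 24.1 and 13 in small intestine. The mean was 4.10-fold lower without overlap (-1.88 ± 0.24, adjusted p = 4.15e-04), and it was the only one of the 17 demethylases called lower. Of the others, 11 were called higher by the size factors, 8 under quantile normalisation and 1 under median-centring. Of the calls over all genes, 63.2%, 45.9% and 29.6% were in the higher direction under these scalings. Kdm2a (0.04 ± 0.17), Kdm2b (0.23 ± 0.21) and Kdm4d (0.34 ± 0.35, with a mean under 10 reads) were not called, nor were the flavin-dependent demethylases of H3K4, Kdm1a (0.42 ± 0.18) and Kdm1b (0.24 ± 0.18).

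Of the 3 H4K20 methyltransferases, Kmt5a and Kmt5c were lower under all 3 scalings. Kmt5a (Set8), which adds the first methyl group and is needed for passage through the cell cycle, had 4068, 4041, 3979 and 4346 in bone marrow and 1582, 1030.4, 708 and 955 in small intestine, 3.84-fold lower (-2.0 ± 0.26, adjusted p = 4.43e-04). Kmt5c, which completes trimethylation, had 659, 678, 627 and 641 in the marrow against 296, 237, 226 and 281 in the intestine, 2.50-fold lower (-1.32 ± 0.18, adjusted p = 5.65e-04). Neither gene overlapped between tissues. Kmt5b, which shares the later steps with Kmt5c, was higher (0.84 ± 0.21, adjusted p = 0.0128), with a difference of -0.06 and no call under median-centring. Kmt5c reads per Kmt5b read fell from 0.485, 0.586, 0.440 and 0.543 to 0.168, 0.106, 0.0870 and 0.105 (log2 change -2.17, exact permutation test, adjusted p = 0.0408).

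Of the remaining SET-domain enzymes only Setd4 was called, and it was higher under all 3 scalings. It had 37.5, 24.1, 30.6 and 17.7 in bone marrow and 134, 209, 199 and 245 in small intestine, a 7.17-fold higher mean without overlap (2.70 ± 0.28, adjusted p = 1.35e-04). Setd2, which trimethylates H3K36 (-0.06 ± 0.16), Setd3, an actin histidine methyltransferase (0.09 ± 0.17), Setd5 (-0.46 ± 0.16), Setd6 (-0.09 ± 0.19) and Setd7 (0.28 ± 0.17) were not called, although 1 of these 5 was called lower under median-centring and 2 under quantile normalisation. Among the 9 symbols without a role, Kdm6bos was the only one called. Of the other 8, Dnmt3aos was at 12.2 ± 4.06 in the marrow and 12.8 ± 9.37 in the intestine and Dnmt3l-ps1 at 8.17 ± 4.88 in the marrow and 18.4 ± 6.83 in the intestine, and the remaining 6 (Dnmt3c, Dnmt3bos, Dnmt3a-ps1, Kat2b-ps, Kat6b-ps1 and Kat6b-ps2) had means under 10 reads.

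**Figure D4:**
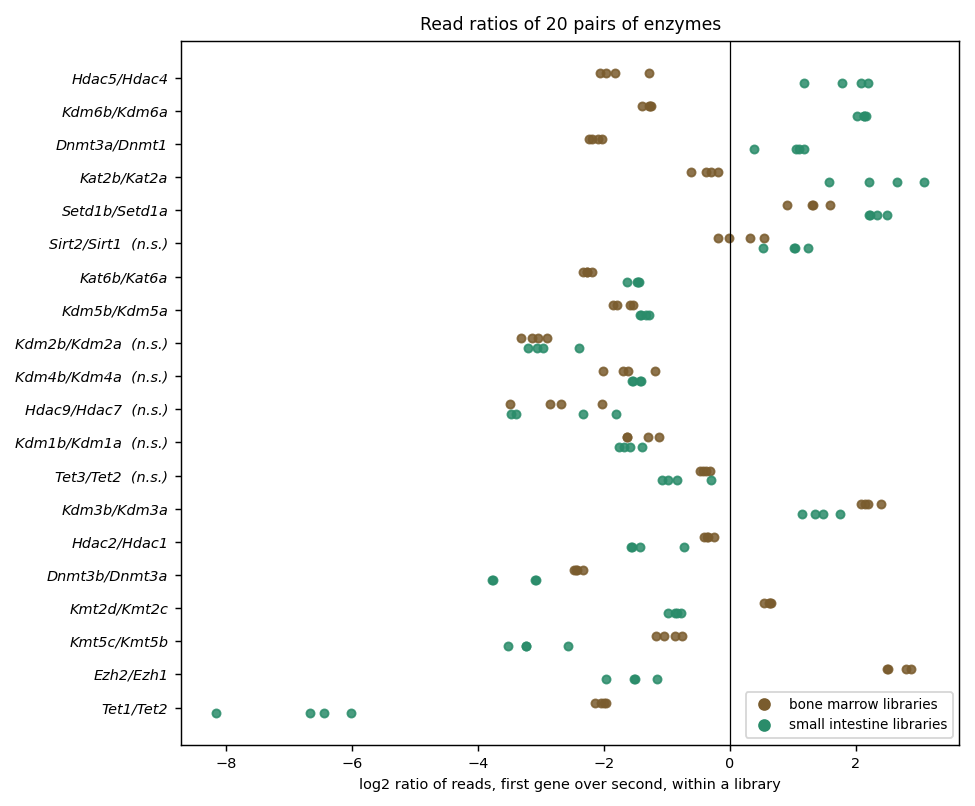
Log2 ratio of reads (horizontal axis) of the first to the second enzyme of 20 pairs in each bone marrow and small intestine library, ordered by the change between tissues; each point is a library and n.s. marks the 6 pairs that did not pass the exact permutation test after adjustment. Ezh2/Ezh1, Dnmt3a/Dnmt1, Kdm6b/Kdm6a, Kat2b/Kat2a, Kmt2d/Kmt2c and Hdac5/Hdac4 cross 0 between the tissues, and Tet1/Tet2 moves farthest, from -2.04 to -6.82 on average.

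The most abundant enzymes were different ones in the 2 tissues. Per kilobase of exon, the highest in bone marrow were Dnmt1 (948 ± 50.7 normalised counts per kilobase), Kmt5a (774 ± 30.7) and Hdac1 (515 ± 28.6), followed by Kmt2e (494 ± 29.2). The spreads of Hdac1 and Kmt2e overlapped. In small intestine they were Kdm6b (1906 ± 278), Kmt2e (1091 ± 164) and Kmt2c (804 ± 81.7), followed by Kat6a (529 ± 39.2). Kdm6b stood above 98.9% of protein-coding genes in small intestine on this scale, and Dnmt1 above 98.4% of them in bone marrow.

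The median exon length was 8.30 kb for the 24 members with a role that were called higher and 4.95 kb for the 19 called lower. Among protein-coding genes with at least 10 reads the same medians were 5.08 and 4.0 kb, and the part of transcript length in the members' differences was not tested. As a description, Spearman's rho of exon length with the difference was 0.321 across the 70 members and 0.145 across 13226 protein-coding genes, all measured in the same libraries. On the log2 scale, the median SD between replicate libraries of the 72 members with at least 10 reads was 0.134 in the marrow and 0.180 in the intestine, against 0.228 and 0.307 over all genes with as many reads.

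The intestinal libraries were not alike in all members. SI_6, which held the most epithelial reads (0.218%) and the most cell division reads of the intestinal libraries (0.0621%), was the intestinal library with the highest value in 13 of the 19 members called lower, and with the lowest value in 20 of the 24 members with a role that were called higher. SI_11 was the highest in 15 of those 24. All 44 calls were kept without SI_6, and 38 to 42 of them without any other library. The same ranks were not counted over all called genes, so they are not shown to be particular to the members. The part of the composition of SI_6 in these values was not tested.

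Genes that work with the enzymes were taken from 6 lists of partners. Of 75 genes listed, 74 were analysed, and 14 were called higher, 31 lower and 29 were not called, a share of 60.8%. All 74 averaged at least 10 reads, and among genes with as many reads 63.1% were called. Non-catalytic subunits of the H3K4 methyltransferase complexes (COMPASS), some common to all of these complexes and some particular to one kind, were lower in 6 of 8 and higher in 0, where 28.6% of genes with at least 10 reads were lower. They were lower in 7 of 8 under median-centring, against 41.8% of those genes, and in 7 of 8 under quantile normalisation, against 36.4%. Accessory PRC2 and PRC1 subunits were higher in 2 and lower in 6 of 17, other histone methyltransferases in 3 and 7 of 13, corepressor subunits in 3 and 7 of 16, coactivators and bromodomain readers in 3 and 1 of 9, and readers and partners of DNA methylation in 3 and 4 of 11. The 3 largest falls were Uhrf1, which brings Dnmt1 to hemimethylated DNA (3011 ± 322 to 82.6 ± 71.8; -5.45 ± 0.50, adjusted p = 6.44e-05), Phf19, an accessory subunit of PRC2 (271 ± 45.5 to 24.0 ± 13.5; -3.42 ± 0.34, adjusted p = 1.02e-04), and Suv39h1, which trimethylates H3K9 (789 ± 84.2 to 96.5 ± 45.3; -3.08 ± 0.31, adjusted p = 1.21e-04). The 3 largest rises were Gadd45a, a stress gene linked to DNA repair and demethylation (61.3 ± 17.9 to 7249 ± 1987; 6.80 ± 0.28, adjusted p = 1.32e-06), Cbx7, a PRC1 subunit that binds methylated H3K27 (33.4 ± 10.7 to 412 ± 98.2; 3.51 ± 0.30, adjusted p = 4.34e-05), and Phf1, an accessory PRC2 subunit (56.6 ± 20.3 to 343 ± 38.9; 2.59 ± 0.29, adjusted p = 2.00e-04).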

How the data were processed

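The authors aligned reads to the mouse build GRCm38 (Ensembl annotation), obtained counts per gene from the nf-core pipeline and deposited variance-stabilised log2 values made with DESeq2 in R 4.0.3, 1 column per library. The aligner, like the strand setting, is not given in the sources used here, and the cDNA was amplified before sequencing from a single end. Column names gave each library's tissue but not its sample. The transformation was inverted in closed form, and gave whole reads (tolerance 0.05) for 100% of genes in every library. Depth was 11508002 to 21289164 reads, which limits precision chiefly for genes under 10 reads. No pair of replicates agreed within counting noise. Because nothing in the labels says how animals relate to libraries beyond their titles, p-values measure the spread between these libraries.

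All 38392 genes were fitted with limma 3.58.1 (R 4.3.3, constant prior, tissue as the only term, Benjamini-Hochberg adjustment, threshold 0.05). Ratios of reads (0.5 added to each gene) were tested with exact 2-sided permutation tests. Gene positions, exon lengths and exon overlaps came from GENCODE M21 of the same build and promoters from RefSeq GRCm38.p6. GENCODE M21 is not the annotation release that the authors counted on, and the overlaps were not checked against that release. Alternatives were other scalings (median-centring over genes with at least 10 reads was chosen after seeing the data), transformations (normalised count plus 1 or 5), priors, array weights, limma voom on the recovered reads, a filter at a mean of 10 reads, and leaving out each library. Values per library are given for every PRC2, H3K27 demethylase, Tet and Dnmt member and for the 2 called members with the largest difference in each other list, where a list held any (Hdac3, Setd1a and the partners, with their 3 largest called differences in each direction, by mean or difference). Members, role lists, partner lists and motifs were chosen with earlier results of these data known. Python 3.11.15 served for the remaining steps (scipy 1.17.1, numpy 2.4.6, pandas 2.3.3; matplotlib 3.10.9 for plots).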

Additional observations from a re-analysis of the deposited data

Results flagged for a closer look

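In 6 of 90 groups of 4 libraries (the 45 members examined in each tissue), the value of a single library lay apart from the other 3, with a gap to its nearest neighbour, as a share of the whole range, above Dixon's 95% critical value, and chance alone sets apart about 1 in 20 groups, or 4.5 of 90. SI_6 was the highest intestinal library for Dnmt1 (gap 0.837 of the range) and Hdac2 (0.840), and the lowest for Dnmt3l (0.849) and Hdac5 (0.862). SI_11 was the lowest intestinal library for Tet1 (0.890), with 24.9 normalised counts against 63.4 to 71.0, and BM_5 the lowest marrow library for Kat7 (0.901). Without SI_6 the differences were -3.06 for Dnmt1, -2.32 for Hdac2, 1.37 for Dnmt3l and 3.37 for Hdac5, each farther from 0 than with it. Without SI_11 the difference of Tet1 was -3.57.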

How the results depend on the processing

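Median-centring over all genes changed the most: 5 members were called higher in place of 25, the median difference of the members became -0.67 in place of 0.23, 29 of the 79 members changed sign, and among those given with values per library the differences of Dnmt3a (-0.76), Tet3 (-0.51), Kdm5c (-0.18), Kdm6a (-0.12) and Tet2 (-0.11) fell below 0. Under quantile normalisation 9 members changed sign, among them Dnmt3a (-0.10) and Tet3 (-0.0074). The cause was not tested. Of the 44 calls, 24 were kept under median-centring, 35 under quantile normalisation, 38 under centring over genes with at least 10 reads, 43 with log2 of the normalised count plus 1, and 44 with array weights, limma voom, log2 of the normalised count plus 5, a filter at 10 reads or a trended prior. Leaving out 1 library kept 38 to 44. Calls kept under every alternative run were 4 higher (Kdm6b, Kdm6bos, Hdac5 and Setd4) and 16 lower (Dnmt1, Ezh2, Suz12, Tet1, Hdac1, Hdac2, Hdac3, Hdac7, Kat2a, Kat7, Kat14, Kmt5a, Kmt5c, Kdm8, Setd1a and Sirt3). Tet3 was called with limma voom, a trended prior, a filter at 10 reads, log2 of the normalised count plus 5, and without BM_5 or SI_10. The 14 pairs passed also with 1 added to each gene and on the deposited values. The pairs were not tested with a library left out, so how far their results depend on a single library is not known. Depth limits the 7 members with a mean under 10 reads, none of which was called. No paired analysis was possible because marrow and intestinal columns have no number in common.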
